A study of Mus musculus with 6 samples.

Results

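Complex I of the respiratory chain is assembled mostly from subunits encoded in the nucleus, and their genes carry the symbol *Nduf*. Every gene of the deposited count table whose symbol starts with *Nduf* and does not hold -ps, the mark of a pseudogene, was taken as a member, which gave 45 of 31169 genes. All 45 passed edgeR's filter on low counts, as did 17707 genes in all. They comprised 35 subunits of the complex, 8 assembly factors and 2 genes that keep an *Nduf* name although their products lie outside the complex. The core subunit gene *Ndufs3* and the accessory subunit gene *Ndufb1* were not analysed here.

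Poly(A) RNA was sequenced from whole retina of C57BL/6 mice, which the study's methods give as male. At 1 month of age, mice received an intracameral injection, that is, into the anterior chamber of the eye, of saline or of polystyrene microbeads 15 µm in diameter, which block the drainage of aqueous humor and thereby elevate intraocular pressure. Retinas were taken 4 weeks later, at 2 months of age. The 3 saline libraries served as the control for the 3 microbead libraries, and no other allele or agent is given for either group. The labels give no replicate numbers, so those used here follow the order in which the samples are listed. The paper's text states more retinas per group and a larger injection volume than the sample labels, which give 1 µL. The methods describe injections into both eyes, and the labels do not say whether the libraries of a group came from separate mice. The p-values therefore measure the spread between these libraries, which may in part be technical.

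Complex I takes electrons from NADH, passes them along a chain of iron-sulphur clusters to ubiquinone, and pumps protons across the inner mitochondrial membrane. It is L-shaped. A matrix arm carries the NADH-oxidising and quinone-reducing core subunits, and a membrane arm holds the proton pumps, whose core subunits are encoded by mitochondrial DNA. Accessory subunits surround both arms, and assembly factors help to build the complex without staying in it. In the retina, photoreceptor inner segments and the unmyelinated axons of retinal ganglion cells are rich in mitochondria, and inherited optic neuropathy can follow from mutations of complex I genes.

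The total was 36085737, 46481382 and 37546884 counts in the saline libraries and 19834366, 13574949 and 15647739 counts in the microbead libraries. The smallest count of any member was 36, for *Ndufa4l2*, with a counting error of 16.7%. The members took 0.279 to 0.310% of all counts in saline libraries and 0.234 to 0.344% in microbead libraries, and genes of the mitochondrial genome took 3.19 to 3.57% and 8.90 to 10.6%. Saline and microbead libraries carry different series of library names, so any effect of separate preparation and the effect of injection cannot be told apart. Among marker lists of cell types, summed rod markers overlapped between groups (71920 to 95540 counts per 1000000 of the scaled library size, CPM, in saline and 62440 to 78100 CPM in microbead libraries), with 0 of 12 higher and 1 of 12 lower. Müller glia markers (6713 to 10130 and 5258 to 6563 CPM, 2 of 9 lower) and endothelial markers (454 to 655 and 280 to 429 CPM, 3 of 7 lower) were lower without overlap. Retinal ganglion markers (371 to 1376 and 909 to 1244 CPM) and pigment epithelium markers (16.5 to 269 and 128 to 156 CPM) overlapped, with none called. Both differed widely between saline libraries and were lowest in saline replicate 1. The summed cone, bipolar, amacrine and horizontal, microglia and red blood cell markers also overlapped. Of the cone markers 1 of 8 was called higher (*Arr3*, log2 fold change 1.44, adjusted p = 0.0126 in edgeR), and none of the other markers in these lists was called. Lens markers reached 394 CPM in 1 saline library and lay between 2.37 and 3.38 CPM in microbead libraries, with *Cryaa*, *Cryba1*, *Crybb2*, *Crygs* and *Mip* at 0 in some library. Of the 4 lens markers tested, 1 was called lower. By the same test, 6.46% of all tested genes were higher and 6.31% lower. The part of these lists in the values of the members was not tested. In whole retina, fewer cells of a type and less RNA per cell cannot be told apart.

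Of the 45 members, 1 was higher and 4 were lower after microbead injection at an adjusted p-value under 0.05 in edgeR's quasi-likelihood test. *Ndufa1* rose, and *Ndufc1*, *Ndufaf8*, *Ndufa2* and *Ndufaf3* fell. Over all tested genes, 6.46% were called higher and 6.31% lower, 12.8% in either direction, so the members' 11.1% was near the background in this fit. The change of 4 members, all of those called except *Ndufaf3*, was also over 2-fold, against 7.05% of all tested genes. The groups did not overlap in CPM for 20 members, 9 of them higher (18.8% of all tested genes) and 11 lower (18.9%), against 37.8% of all tested genes in either direction. The median log2 fold change of the members was -0.19, against -0.03 over all tested genes, with 19 members above and 26 below 0. In the plot of log2 fold changes by role, the 95% intervals of 17 members (37.8%) do not cross 0, against 31.4% of all tested genes. The call counts were not stable to the method. Correcting for GC content and transcript length gave 1 higher and 15 lower of the 45 members, where 1474 and 1706 of 17707 genes were called. With this correction, the share called lower was larger among the members than over all genes. The share called higher was smaller. Upper-quartile scaling gave 2 and 4 (1252 and 956 of all genes), and DESeq2 gave 6 and 4 (1883 and 1699). Without microbead replicate 3, edgeR called no member, and 26 genes higher and 20 lower over the whole table.

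**Figure D1:**
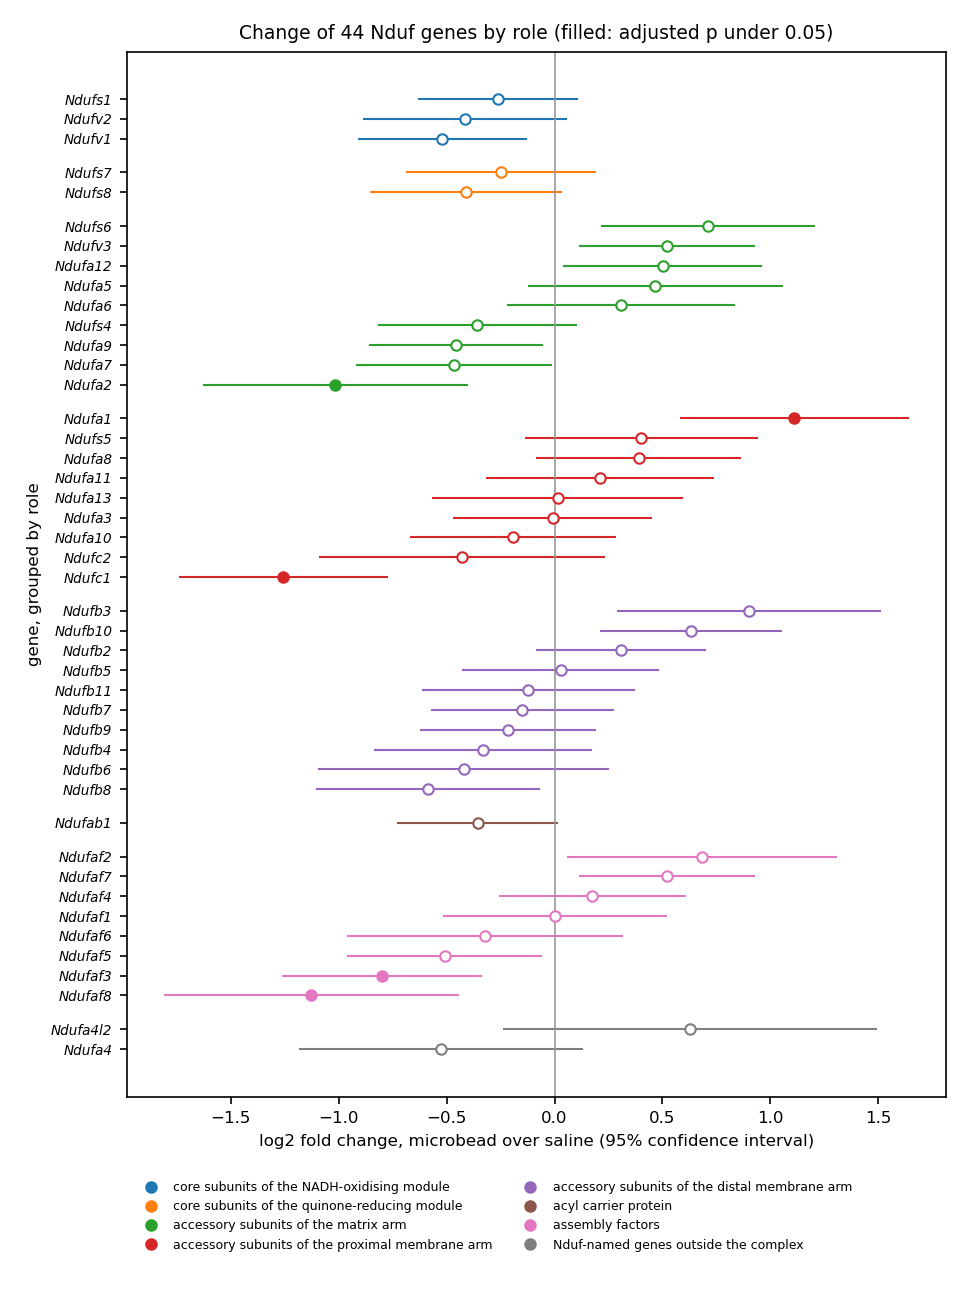
The horizontal axis gives the log2 fold change of microbead over saline with its 95% confidence interval for 44 genes, grouped by role on the vertical axis. Filled points mark the 5 genes called at a threshold of 0.05, and the values run from -1.26 for *Ndufc1* to 1.11 for *Ndufa1*.

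*Ndufa1* encodes a small accessory subunit of the membrane arm and lies on the X chromosome (GRCm38, chrX:37187588-37191163, minus strand). Its level was 38.6, 36.3 and 48.7 CPM in saline libraries and 120.6, 71.7 and 74.4 CPM in microbead libraries. Every microbead library was above every saline library, and microbead replicate 1 stood well above the others. The log2 fold change of 1.11 ± 0.24 (standard error) had an adjusted p of 0.0221 in edgeR. The call was lost when saline replicate 2, microbead replicate 1 or microbead replicate 3 was left out (edgeR adjusted p of 0.0850, 0.0522 and 0.0773). Corrected for GC content and length, its log2 fold change was 0.67 (adjusted p of 0.0359 in edgeR).

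*Ndufc1*, on chromosome 3 (chr3:51404677-51408988, minus strand), encodes another small subunit of the membrane arm. It was measured at 38.8, 33.6 and 43.7 CPM after saline and at 20.6, 14.0 and 13.9 CPM after microbeads. The groups were widely separated, and the 3 microbead values lay below the lowest saline value. This gave a log2 fold change of -1.26 ± 0.22 (standard error), with an adjusted p of 0.0144 in edgeR. The call held with each library left out in turn except microbead replicate 3 (adjusted p = 0.0773 in edgeR).

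*Ndufaf8* (chr11:120098928-120100705, plus strand) encodes an assembly factor that works with the product of *Ndufaf5*. Saline libraries held 14.3, 10.6 and 14.5 CPM of *Ndufaf8* and microbead libraries 7.98, 3.76 and 6.17 CPM. Both groups lay at low levels and did not overlap. Its log2 fold change of -1.13 ± 0.30 (standard error) had an adjusted p of 0.0420 in edgeR. With each of the 6 libraries left out in turn, edgeR's adjusted p ran from 0.0524 to 0.134, so the call needed every library. The log2 fold change of *Ndufaf8* ran from -1.40 to -0.87 in these fits, some of which called far fewer genes over the whole table. *Ndufaf5*, which encodes an assembly factor with a methyltransferase fold, had a log2 fold change of -0.51 (adjusted p = 0.120 in edgeR), and its groups did not overlap either.

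*Ndufa2* (chr18:36742332-36744557, minus strand) encodes a matrix arm subunit with a thioredoxin fold. It stood at 58.5, 55.8 and 63.1 CPM in saline libraries and at 43.5, 19.8 and 24.2 CPM in microbead libraries. The saline values lay close together, and microbead replicate 1 was nearest to them. The decrease amounted to -1.02 ± 0.27 (standard error) on the log2 scale, with an adjusted p of 0.0418 in edgeR. The call held only without saline replicate 1 (0.0453) or microbead replicate 1 (0.0264), and edgeR gave 0.0992, 0.0709, 0.113 and 0.160 when saline replicate 2, saline replicate 3, microbead replicate 2 or microbead replicate 3 was left out. An exon of *Ndufa2* overlaps *Tmco6* on the opposite strand, and whether the authors counted by strand is not given in the sources used here.

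*Ndufaf3* (chr9:108565537-108567434, minus strand) encodes a factor for the assembly of the quinone-reducing module. Its levels were 34.7, 29.0 and 36.7 CPM after saline and 23.7, 16.3 and 17.6 CPM after microbeads. All microbead values lay below the saline values. On the log2 scale the change was -0.80 ± 0.21 (standard error), with an adjusted p of 0.0368 in edgeR. The call held only without microbead replicate 1 (0.0443), and leaving out saline replicate 1, 2 or 3 gave 0.0513, 0.0840 and 0.0784, and leaving out microbead replicate 2 or 3 gave 0.108 and 0.135 from edgeR. *Ndufaf3* overlaps *Impdh2* on the opposite strand. In the transcripts of *Ndufa1*, *Ndufc1* and *Ndufaf8*, no exon overlapped another gene.

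**Figure D2:**
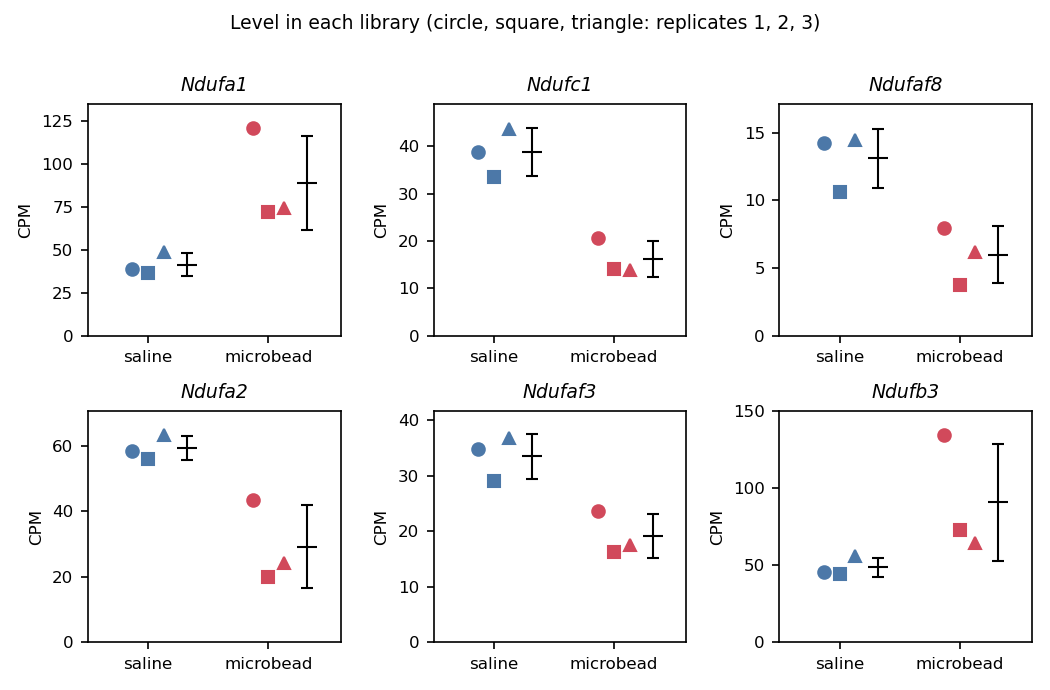
Each panel gives the level in CPM on a vertical axis that starts at 0, with circles, squares and triangles for replicates 1, 2 and 3 of each group and a bar for the mean with its SD (n = 3). *Ndufa1* and *Ndufb3* were higher in every microbead library, and *Ndufc1*, *Ndufaf8*, *Ndufa2* and *Ndufaf3* were lower in every microbead library.

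Just outside the threshold lay *Ndufb10*, *Ndufb3*, *Ndufs6*, *Ndufaf7* and *Ndufv3* on the higher side and *Ndufv1* on the lower side, all without overlap of the groups. *Ndufb10*, of the distal membrane arm, had a log2 fold change of 0.63 (adjusted p = 0.0554 in edgeR), and *Ndufs6*, a zinc-binding subunit of the matrix arm, 0.71 (0.0628). *Ndufb3*, also of the distal membrane arm, was at 46.0, 44.1 and 55.9 CPM in saline libraries and at 134.6, 73.2 and 64.8 CPM in microbead libraries. Its microbead mean (90.9 ± 38.1 CPM, SD, n = 3) rested in part on microbead replicate 1, and its log2 fold change of 0.90 ± 0.27 (standard error) had an adjusted p of 0.0586 in edgeR. Without microbead replicate 1 it was 0.50 (0.121), and corrected for GC content and length 0.55 (0.0624). *Ndufaf7*, a methyltransferase that acts on a subunit during assembly, had 0.52 (0.0840), and *Ndufv3*, an accessory subunit of the NADH-oxidising module, 0.52 (0.0845). DESeq2 called *Ndufs6*, *Ndufaf7* and *Ndufv3* higher (adjusted p of 0.0204, 0.0469 and 0.0398). *Ndufv1*, the subunit that binds NADH, was at 178.8, 174.6 and 202.7 CPM in saline libraries and at 138.7, 108.0 and 141.0 CPM in microbead libraries. Its groups did not overlap, and the log2 fold change of -0.52 ± 0.17 (standard error) had an adjusted p of 0.0768 in edgeR.

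The 5 core subunits described here were all on the lower side, as were 26 of all 45 members and 9221 of 17707 tested genes. These genes come from the same libraries, so they are not separate observations. None of the 5 passed the test in edgeR as described or in DESeq2, with 1 at an unadjusted p under 0.05 (*Ndufv1*). Corrected for GC content and length, edgeR called *Ndufv1*, *Ndufv2* and *Ndufs8* lower (adjusted p of 0.0131, 0.0333 and 0.0332). The core subunits of the NADH-oxidising module, *Ndufv1*, *Ndufv2* and *Ndufs1*, had a median log2 fold change of -0.42, and their summed level was 377.6, 372.2 and 443.9 CPM in saline libraries and 339.6, 263.6 and 290.5 CPM in microbead libraries. The summed levels did not overlap, which held on the lower side for 18.9% of all tested genes taken singly. Of the quinone-reducing core subunits, *Ndufs7* had -0.25 and *Ndufs8* -0.41. Over these 5 genes, edgeR's adjusted p ran from 0.0768 to 0.425. *Ndufs8*, whose product carries iron-sulphur clusters close to the quinone site, was at 46.7, 51.0 and 65.6 CPM after saline and at 43.8, 33.7 and 45.2 CPM after microbeads, and the log2 fold change of -0.41 ± 0.20 (standard error) had an adjusted p of 0.189 in edgeR. The microbead values of *Ndufs8* lay below the lowest saline value.

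The accessory subunits did not move in one direction. For the counts that follow, edgeR as described called 12.8% of all tested genes, and 31.4% had an unadjusted p under 0.05. Of the 9 in the matrix arm, 5 had positive and 4 negative values (median 0.31), and *Ndufa2* was the only call by edgeR as described. DESeq2 also called *Ndufs6* and *Ndufv3* higher (adjusted p of 0.0204 and 0.0398), and edgeR without a filter *Ndufs6* (0.0305). With the GC and length correction, edgeR also called *Ndufa7*, *Ndufa9* and *Ndufs4* lower (0.0164, 0.0211 and 0.0411). At the positive end stood *Ndufs6*, *Ndufv3* (0.52), *Ndufa12* (0.50), *Ndufa5* (0.47) and *Ndufa6* (0.31), and at the negative end *Ndufs4* (-0.36), *Ndufa9* (-0.46) and *Ndufa7* (-0.46). Of the 9 in the proximal membrane arm, 1 was called higher and 1 lower by edgeR as described (median 0.02). Apart from *Ndufa1* and *Ndufc1* the values ran from -0.43 for *Ndufc2* to 0.40 for *Ndufs5*. The GC and length correction also called *Ndufc2* lower (adjusted p of 0.0449 in edgeR). Of the 10 in the distal membrane arm none was called by edgeR as described, with 3 at an unadjusted p under 0.05. DESeq2 called *Ndufb3* and *Ndufb10* (adjusted p of 0.0115 and 0.0160), and so did edgeR when at least 10 counts were required in every library (0.0461 and 0.0440). In edgeR, upper-quartile scaling also called *Ndufb10* (0.0451), and thinned libraries *Ndufb3* (0.0482) and *Ndufb10*. No filter called *Ndufb3* and *Ndufb8* (0.00522 and 0.0384), and the GC and length correction *Ndufb8* (0.0174), all in edgeR. Values ran from -0.59 for *Ndufb8* to 0.90 for *Ndufb3* (median -0.14). The summed levels of these 3 sets overlapped between the groups. Of the 8 assembly factors 2 were called lower by edgeR as described, and 4 had positive and 4 negative values (median -0.16). *Ndufaf2*, a paralog of *Ndufa12*, was at 0.68 (adjusted p = 0.128 in edgeR). DESeq2 also called *Ndufaf7* higher (adjusted p of 0.0469), and the GC and length correction in edgeR *Ndufaf5* lower (0.0131).

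*Ndufab1* encodes the mitochondrial acyl carrier protein, which serves fatty acid synthesis and is also a subunit of complex I. It was at 42.8, 38.2 and 38.4 CPM in saline libraries and at 34.6, 29.0 and 29.6 CPM in microbead libraries. The groups did not overlap, but the log2 fold change of -0.36 ± 0.17 (standard error) did not pass (adjusted p = 0.176 in edgeR). Corrected for GC content and length it was -0.55 (0.0246). *Ndufa4*, whose product is a subunit of cytochrome c oxidase, was at 190.6, 206.6 and 273.6 CPM in saline libraries and at 235.8, 117.3 and 113.0 CPM in microbead libraries. Only microbead replicate 1 reached the saline range, and the value of -0.52 ± 0.29 (log2 fold change with standard error) had an adjusted p of 0.254 in edgeR. Corrected for GC content and length, its log2 fold change was -0.93 (adjusted p of 0.0216 in edgeR), and without microbead replicate 1 it was -0.96 (0.0507). *Ndufa4l2*, its hypoxia-inducible paralog, was low in all libraries, at 2.21, 1.85 and 2.28 CPM after saline and at 4.74, 2.67 and 2.34 CPM after microbeads. Microbead replicates 2 and 3 lay close to the saline values, and the change of 0.63 ± 0.39 (log2, standard error) had an adjusted p of 0.298 in edgeR and was 0.24 without microbead replicate 1.

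Libraries of the same group differed in a way that ran through nearly all members. Among the saline libraries, replicate 3 held the highest CPM for 40 of 45 members, although it was the highest for only 39.8% of all tested genes, and replicate 2 for 0. Among the microbead libraries, replicate 1 was the highest for 43 of 45, against 37.6% of all tested genes, and replicate 2 for 0. The same libraries led for the subunits of complexes II to V, with saline replicate 3 the highest for 39 of 42 and microbead replicate 1 for 38 of 42. The summed level of the 45 members was 2733, 2689 and 3322 CPM in saline libraries and 3511, 2289 and 2454 CPM in microbead libraries. The groups overlapped, and microbead replicate 1 was the highest of the 6.

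**Figure D3:**
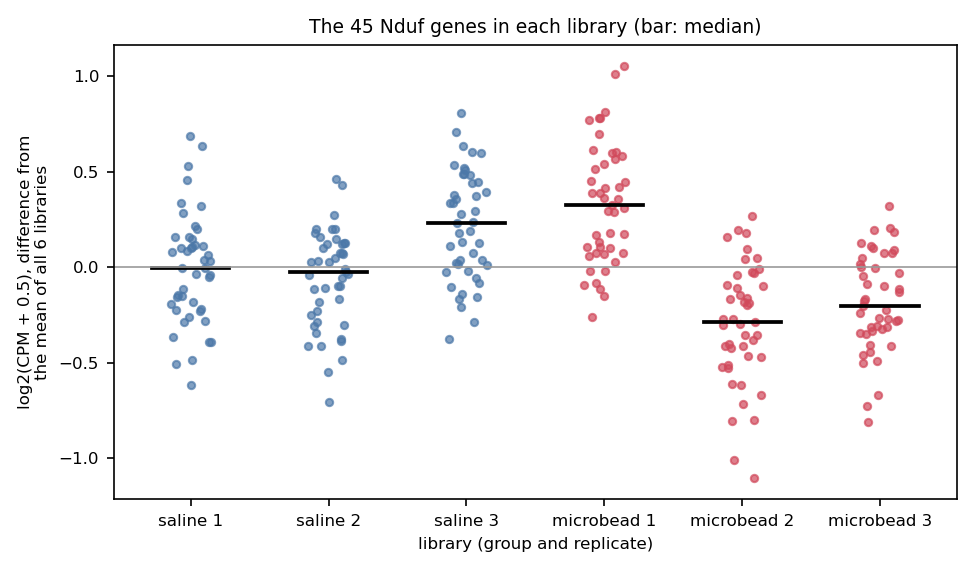
The vertical axis gives, for each of the 45 genes, log2(CPM + 0.5) less its mean over all 6 libraries, the horizontal axis the libraries, and the bars the medians. The medians are 0.00, -0.02 and 0.23 in saline replicates 1 to 3 and 0.33, -0.29 and -0.20 in microbead replicates 1 to 3.

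The levels of the members relative to each other were closer within a group than between the groups. Over the 45 members, the SD of the log2 difference between libraries was 0.131 to 0.271 for pairs of the same group and 0.505 to 0.598 for pairs of different groups. For all tested genes with a mean of at least 10 CPM (10351 genes), the ranges were 0.349 to 0.619 and 0.557 to 0.834. Spearman's rho of the members' levels was 0.971 to 0.995 within groups and 0.862 to 0.895 between groups, as a description over 45 genes that share each library and its depth. When each member was expressed as its share of the members' summed CPM in the same library, which was done after seeing the data, the groups did not overlap for 31 of 45 members, 16 higher and 15 lower. When all tested genes were divided by the same sum, 29.5% did not overlap. This is not an equal comparison, because the sum takes out a library difference that the members share and other genes need not share. In CPM, the groups did not overlap for 20 of 45 members and for 37.8% of all tested genes.

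By role, all 9 accessory subunits of the matrix arm had shares that did not overlap, 5 higher and 4 lower. This held for 31 of all 45 members (68.9%), and for 29.5% of all tested genes divided by the same sum. In CPM, 5 of the 9 accessory subunits of the matrix arm did not overlap, against 37.8% of all tested genes. Of the 5 core subunits described 2 had lower shares and none a higher one, and the assembly factors had 3 of 8 higher and 3 of 8 lower. The share of *Ndufa1* was 1.41 ± 0.058% (SD, n = 3) in saline and 3.20 ± 0.21% in microbead libraries. *Ndufc1* went from 1.33 ± 0.087% to 0.588 ± 0.023%, and *Ndufa2* from 2.04 ± 0.12% to 1.03 ± 0.19%. *Ndufs4*, which encodes a matrix arm subunit whose loss causes Leigh-like disease in mice, was chosen here after its values were seen. Its share was 1.54 ± 0.0061% in saline and 1.28 ± 0.014% in microbead libraries, although its CPM overlapped between the groups. *Ndufb10* had a share of 2.56 ± 0.073% and 4.23 ± 0.17%.

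**Figure D4:**
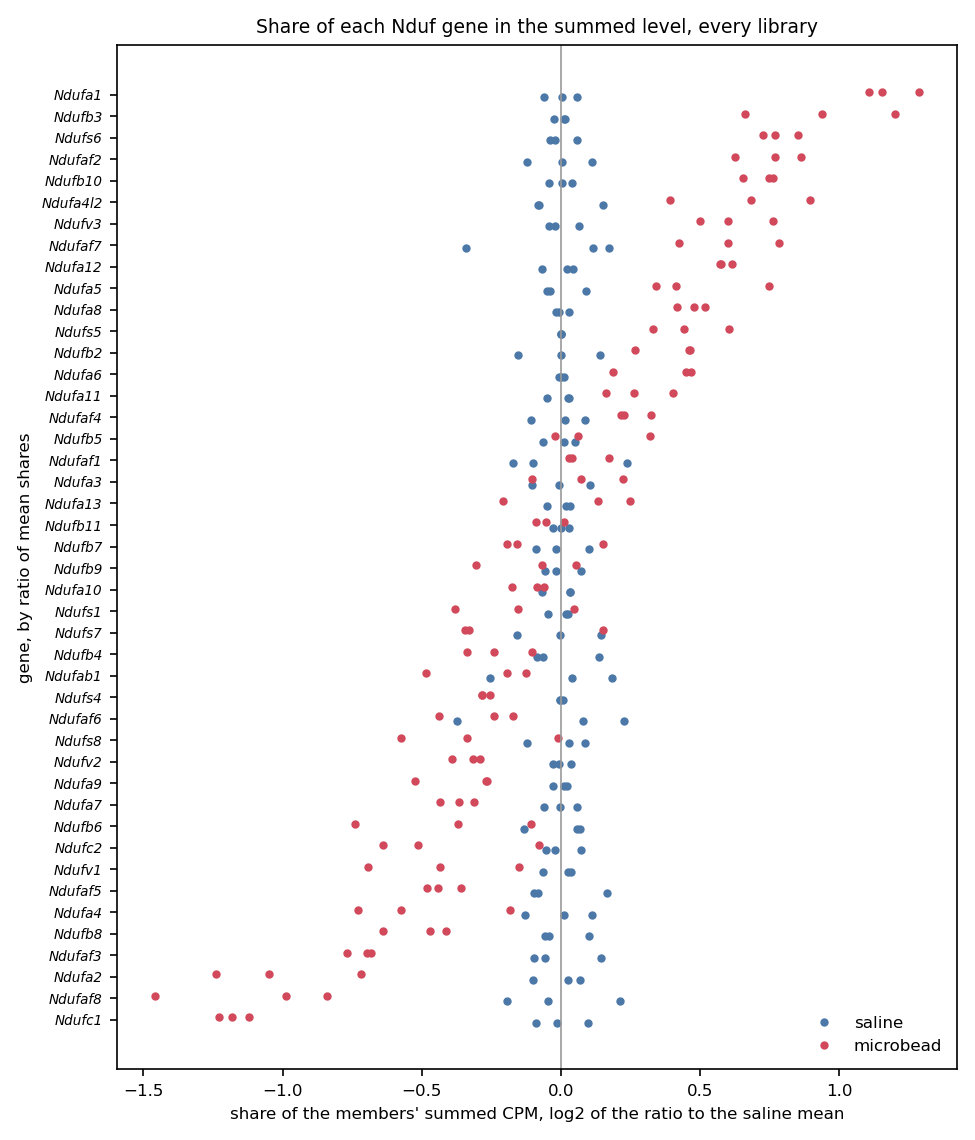
The horizontal axis gives the share of each gene in the members' summed CPM in each of the 6 libraries, as the log2 of its ratio to the saline mean share, and the genes are ordered on the vertical axis by the ratio of mean shares. Saline points lie close together near 0 for many genes and further apart for others, such as *Ndufaf6* (shares of 0.340, 0.307 and 0.224%). The microbead points of 30 of the 44 genes shown lie wholly to one side of the saline points.

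Per length of mRNA, the members covered a wide range of levels. *Ndufa4* was the highest in both groups, at 367 ± 72.2 CPM per kb (SD, n = 3) in saline and 255 ± 114 CPM per kb in microbead libraries. *Ndufb9*, a distal membrane arm subunit, was the next in saline libraries, at 161 ± 27.0 and 139 ± 15.4 CPM per kb. In CPM it was at 101.9, 102.9 and 135.3 after saline and at 110.1, 92.0 and 90.6 after microbeads, and its change of -0.22 ± 0.18 (log2, standard error) had an adjusted p of 0.451 in edgeR. Without saline replicate 3 it was -0.07, and corrected for GC content and length -0.52. *Ndufa1* went from rank 12 in saline (98.3 ± 15.7 CPM per kb) to rank 2 in microbead libraries (212 ± 65.6), and *Ndufa2* from rank 9 (103 ± 6.44) to rank 27 (51.0 ± 22.1). *Ndufa4l2* was the lowest member in both groups, at 2.26 ± 0.25 and 3.48 ± 1.39 CPM per kb. Assembly factors made up 7 of the 10 lowest members, from *Ndufaf6* at 6.92 to *Ndufaf3* at 17.7 CPM per kb over all libraries. For 6 members the transcript used sets the level per length. *Ndufb2*, for example, was at 84.7 CPM per kb by its shortest principal transcript and at 8.82 by the longest, an alternative chosen after seeing the data.

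**Figure D5:**
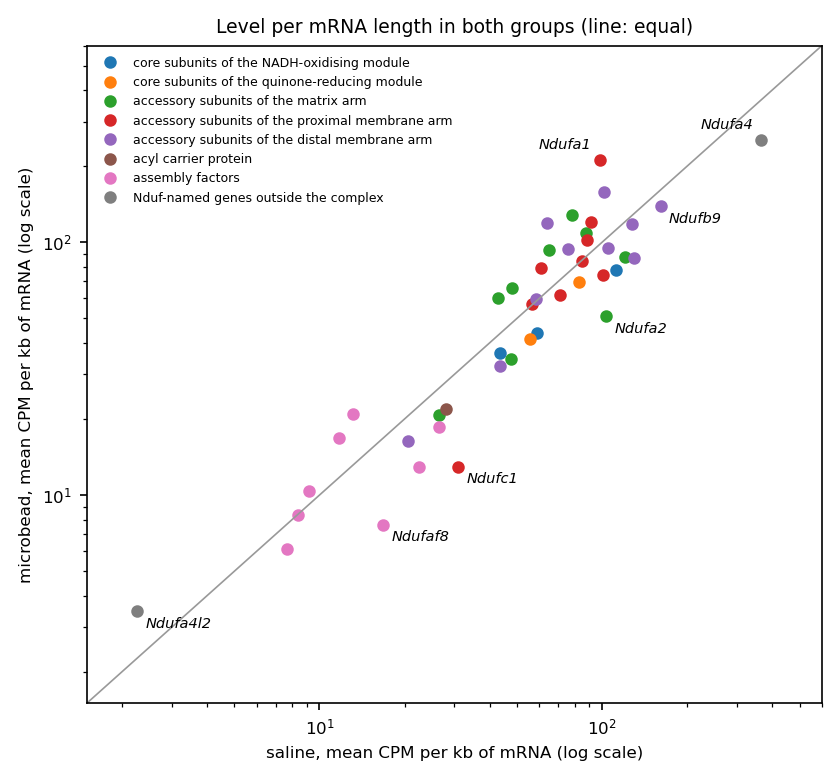
Each point is 1 of 44 genes, with its mean CPM per kb of mRNA in saline libraries on the horizontal and in microbead libraries on the vertical axis, both on log scales, coloured by role, and with a line of equality. *Ndufa4* lies at the top and *Ndufa4l2* at the bottom in both groups, and *Ndufa1* lies above and *Ndufa2*, *Ndufc1* and *Ndufaf8* below the line.

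The mRNAs of the members were short, with a median of 908 bases against 2893.5 bases for all protein-coding tested genes. The 23 members up to the median length had a median log2 fold change of -0.01 (11 positive, 12 negative), and the 22 longer ones -0.31 (8 positive, 14 negative). Spearman's rho of the log2 fold change with mRNA length was -0.18 over the members and -0.22 over 14568 protein-coding genes, and with GC content 0.09 and 0.04. These correlations are across genes of the same libraries. The members lie on 17 chromosomes. Of the 45, 39 share no 100-base stretch with a transcript of another locus, and 16 have an exon overlapped by a gene on the opposite strand. More than 10% of the transcripts is shared for *Ndufa12* (11.4%, with the pseudogene *Gm15920*), *Ndufb4* (16%, with *Ndufb4c*) and *Ndufs5* (12.7%, with *BC002163*), so that their reads are uncertain. *Gm15920* rose (log2 fold change 3.97, adjusted p = 0.00289 in edgeR) but held at most 9.52 CPM in any library, while *Ndufa12* held 42.3 to 84.6 CPM.

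The genes around the members in the pathway gave a mixed picture. Of 10 further assembly factors measured, 1 was higher and 0 were lower (median -0.02, with 4 at an unadjusted p under 0.05). The shares over all tested genes were 12.8% called in edgeR and 31.4% at an unadjusted p under 0.05. *Atp5sl*, now named for a distal membrane arm assembly factor, rose from 42.3, 43.0 and 40.5 to 86.4, 76.3 and 93.7 CPM (log2 fold change 1.03, adjusted p = 0.0116 in edgeR), and *Nubpl*, which helps to insert iron-sulphur clusters, had -0.65 (0.114). All 7 mitochondrially encoded subunits were called. Of these, 5 rose by 1.70 to 2.38 on the log2 scale, with *mt-Nd6* at the top (1151, 1129 and 1287 CPM in saline and 7556, 4680 and 6360 CPM in microbead libraries), and *mt-Nd3* and *mt-Nd4l*, which held at most 6.02 CPM in any library, fell by 2.24 and 3.57. Of 42 tested subunits of complexes II to V, 2 were higher and 2 lower (9.52%, against 12.8% of all tested genes, median 0.00). *Uqcrb* of complex III rose (1.38, adjusted p = 0.0149 in edgeR) and *Atp5e* of complex V fell (-1.17, 0.0200). The other calls, named after their values were seen, were *Cox7a2l* (0.71, 0.0418) and *Uqcrfs1* (-0.89, 0.0327). *Uqcrc1*, also of complex III, was listed at 0 or 1 count in every library and was not tested.

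Of 11 transcriptional regulators of nuclear genes for mitochondrial proteins, 0 were higher and 1 was lower in edgeR, with 6 at an unadjusted p under 0.05. The shares over all tested genes were 12.8% called and 31.4% at an unadjusted p under 0.05. *Yy1*, a zinc-finger factor with binding sites in many housekeeping promoters, was at 68.9, 59.9 and 61.1 CPM in saline libraries and at 36.5, 37.9 and 36.1 CPM in microbead libraries. The groups were far apart relative to their spread (-0.78 ± 0.16 on the log2 scale, with its standard error; adjusted p = 0.0188 in edgeR). *Esrrg*, a nuclear receptor that acts on genes of oxidative metabolism, had -0.67 (adjusted p = 0.0923 in edgeR). *Nrf1*, named after its values were seen, encodes the factor that binds a GC-rich word in promoters of respiratory chain genes, and had -0.02 (0.943).

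Promoter windows from RefSeq (GRCm38.p6), 250 bases before to 50 after the start, were found for 39 of the 45 members and searched on both strands. The NRF1 word GCGCANGCG was in 10 members (25.6%) against 13.6% of the 11960 tested genes and 7.03% of all 27025 genes with a window. The YY1 word AAGATGGC was in 8 members (20.5%) against 4.64% of those tested and 3.19% of all, and the ETS word CCGGAAGT in 0 against 7.93% and 4.31%. No match of one word overlapped a match of another, and a match is a description of letters and not a binding site. All 8 YY1 words read in the direction of the gene and lay from 11 to 46 bases after the start. The 13 NRF1 words lay between 191 bases before and 33 bases after the start.

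The stretches with the YY1 word are shown for the members with the largest changes among those that hold it, with 10 bases on each side where the window allows and the word in capitals.
*Ndufc1* (chr3:51408916-51408943, minus strand): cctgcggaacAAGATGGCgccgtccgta
*Ndufaf8* (chr11:120098934-120098961, plus strand): ggcagggcccAAGATGGCggcgccctcg
*Ndufs6* (chr13:73328433-73328459, minus strand): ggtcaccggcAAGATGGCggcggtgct
*Ndufb8* (chr19:44555393-44555414, minus strand): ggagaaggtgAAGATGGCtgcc

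The stretches with the NRF1 word are shown in the same way for the members with the largest changes, in either direction, whose window holds it. The word of *Ndufs6* is on the opposite strand, so its capitals are the reverse complement of the letters above.
*Ndufs6* (chr13:73328479-73328507, minus strand): gactgctgtgCGCCTGCGCcggcacttgg
*Ndufb10* (chr17:24724407-24724435, minus strand): tcacctttctGCGCAGGCGtagaggtccc
*Ndufaf5* (chr2:140170652-140170680, plus strand): agtcccgttgGCGCATGCGcctaatagaa
*Ndufa5* (chr6:24527698-24527726, minus strand): tgtgtgagctGCGCAGGCGcaaatctacc

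Members with the YY1 word had a median log2 fold change of -0.41, with 7 of 8 below 0, and *Ndufs6*, which holds both words, was the exception. Both *Ndufc1* and *Ndufaf8*, the members with the most negative values, hold it. Of the other members called lower, *Ndufaf3* (-0.80) has a window without the YY1 word, and no window was found for *Ndufa2* (-1.02). Members with the NRF1 word had a median of 0.35, with 8 of 10 above 0 and *Ndufaf5* and *Ndufb4* below. Over all tested genes with a window, genes with the YY1 word had a median of -0.02 (48.3% above 0, 555 genes) and genes with the NRF1 word -0.03 (48.1%, 1629 genes), near the -0.04 of genes without either word in turn. The words were chosen with the members' changes known, so these splits are descriptions.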

How the data were processed

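Poly(A) libraries of 3 saline and 3 microbead retinas were compared. The authors aligned the reads with STAR 2.5.3a to GRCm38.p5 (GENCODE vM12), counted them per gene with featureCounts 1.15.2 and deposited raw counts without normalization. Strand and multi-mapping settings of the counting are not given in the sources used here. The same table holds the authors' DESeq2 1.14 comparison (mean, fold change, p-values and calls), which was not used. Depth per library is given in the report. A floor of 3 counts was 0.0645 CPM in the deepest and 0.221 CPM in the shallowest library, for counting error only.

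Genes were filtered with filterByExpr (minimum count 10), scaled by TMM and tested by quasi-likelihood in edgeR 4.0.16 (R 4.3.3; two-sided, no covariates), with Benjamini-Hochberg adjustment over 17707 genes and a threshold of 0.05. CPM use the TMM-scaled sizes. The steps were tested on simulated data. Positions, lengths and overlaps came from GENCODE vM21, matched by gene ID for 99.5% of the table, with the shortest best-supported principal transcript as length. No library duplicated another: the lowest chi-square per degree of freedom within a group was 20.1.

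The members and lists were chosen with earlier results of these data known. Named with full values were members past the threshold, the largest change of each role and the 3 highest levels per kb, and from each other list at most 2 genes; genes named beyond this were chosen after their values were seen. Alternatives were RLE and upper-quartile scaling, sizes without mitochondrial genes, other filters, DESeq2 1.42.0, limma-voom 3.58.1, a replicate block, a GC and length offset (alone and with the block), stricter thresholds, thinned libraries and each library left out. Shares of the members' sum, promoter words and longest transcripts were chosen after seeing the data. 1 member is counted in the totals, but its own results are not reported here.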

Additional observations from a re-analysis of the deposited data

How the results depend on the processing

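The median log2 fold change of the members stayed below 0 in all 17 alternative fits, from -0.06 to -0.35, within the spread between replicates (0.258) of -0.19. The median over all tested genes was also below 0 in each of these fits except upper-quartile scaling (0.01). The 2 medians were close without a filter (-0.24 for members, -0.23 for all) and without microbead replicate 2 (-0.06 and -0.04). They were further apart with the GC and length offset (-0.35 and -0.03). The counts of members called depended on the processing, and the causes were not tested. Against 1 higher and 4 lower, the higher count was 2 with upper-quartile scaling (1252 over all genes, against 1143), 3 without a filter, with at least 10 counts in every library and with thinned libraries (1511, 1221 and 1145), and 6 with DESeq2 (1883), and the lower count was 15 with the GC and length offset (1706 over all genes, against 1118). With the replicate block 0 were higher and 2 lower (480 and 425 over all genes), and with the offset and the replicate block 0 and 6 (602 and 636). The replicate numbers behind this block were given here by sample order and are not part of the study's design. Same-numbered libraries did not deviate together (correlations -0.02, 0.17 and 0.01), so the numbers do not pair them. At an adjusted p under 0.01, 0 members were called by edgeR in either direction, and 55 genes higher and 32 lower over the whole table. At an unadjusted p under 0.05 there were 17 members (37.8%), against 31.4% of all tested genes. With each library left out in turn, 0 to 1 were higher and 0 to 3 lower by edgeR, with none without microbead replicate 3 (26 and 20 over all genes) and 1 without saline replicate 2 (142 and 151). Of the 45 members, 35 kept their sign in all 17 fits. The depth limits *Ndufa4l2* and *Ndufaf8* most.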
